A study of Mus musculus with 33 samples.

Results

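Acetylation of lysine 27 on histone H3 (H3K27ac) was compared between Dlx1/2 knockout and wild-type mouse basal ganglia at embryonic day e13.5, from 2 lists of broad ChIP-seq peaks restricted to chromosomes 1 to 19. The knockout list held 305923 peaks and the wild-type list 286660 peaks, together 592583 of the 1790299 autosomal peaks deposited in 17 peak lists. The knockout embryos lacked functional copies of both Dlx1 and Dlx2 (labelled Dlx1/2-/-), and the wild-type embryos carried both genes. Embryos of both genotypes were of the outbred CD1 strain, per the labels. The dissected tissue held the lateral, medial and caudal ganglionic eminences, with their progenitor zones and the mantle of young neurons, so each library averages over several regions and cell states. In bulk tissue, fewer cells of a type and less of a mark per cell cannot be told apart. The labels give 1 H3K27ac library per genotype, so no difference between the genotypes has a replicate check, and no test was run. Intervals beside percentages are 95% Wilson intervals. For a count of 0, the share it allows is 3 counts of the total, a separate rule. Both cover counting error only.

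H3K27ac marks nucleosomes at active promoters and active enhancers, and it is removed or absent where a regulatory element is silent. H3K4me3 marks promoters, H3K4me1 marks promoter flanks and enhancers, and H3K27me3 is the mark of Polycomb repression. DLX1, DLX2 and DLX5 are homeodomain transcription factors of the subpallium, where they promote the differentiation and migration of GABAergic neurons. DLX5 and the related DLX6 are known downstream genes of DLX1 and DLX2 in this tissue. The question of the comparison was where acetylation differs once DLX1 and DLX2 are gone, and whether this coincides with DLX binding. Chromatin was prepared without crosslinking and cut with micrococcal nuclease into single and double nucleosomes, so the signal depends on the digestion as well as on the antibody. Each peak carries the authors' fold enrichment over input, averaged along the peak, and the −log10 of its q-value.

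RNA of the same tissue and age was used to check the genotype labels, in 4 knockout and 4 wild-type libraries that are separate from the chromatin libraries. Dlx2 stood at 1.06, 1.01, 1.52 and 1.51 CPM (read counts scaled to a common library total) in the knockout libraries, against 18.2, 15.3, 21.9 and 28.9 CPM in the wild-type libraries. Dlx1 stood at 21.3, 22.6, 24.2 and 26.3 CPM in the knockout libraries, against 116.5, 121, 129 and 126 CPM in the wild-type libraries. The genotypes did not overlap for either gene. The knockout mean was 6.06% of the wild-type mean for Dlx2 and 19.1% for Dlx1.

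The largest single difference in H3K27ac was the loss of an interval of 15830 bp on chromosome 2 (mm9 chr2:71368480-71384309). In knockout tissue 473 bp of the interval lay under an H3K27ac peak, 127 bp at one edge and 346 bp at the other. In wild-type tissue the whole interval lay inside 1 peak of 29679 bp, with an enrichment of 7.45 and a −log10 q of 20.5. In the authors' deposited table of differences the interval scored 187, a log10 likelihood ratio, and the second highest score of any region lower in knockout was 19.9. The same stretch was nearly bare of the other 3 marks in knockout tissue. H3K4me1 had no peak there in knockout, against full coverage in wild type. H3K27me3 covered 1.71% of the interval in knockout and 100% in wild type, and H3K4me3 covered 3.66% in knockout and 100% in wild type. Both active and repressive marks were thus missing from the same bases, with peaks resuming at both borders. In peak lists, absent DNA and absent marks cannot be told apart, and DNA copy number was not tested. Chromosome 2 carries Dlx1 and Dlx2 in the RefSeq table of GRCm38. Coordinates are those of mm9 and were not matched to gene models, so no region is assigned to a gene.

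**Figure D1:**
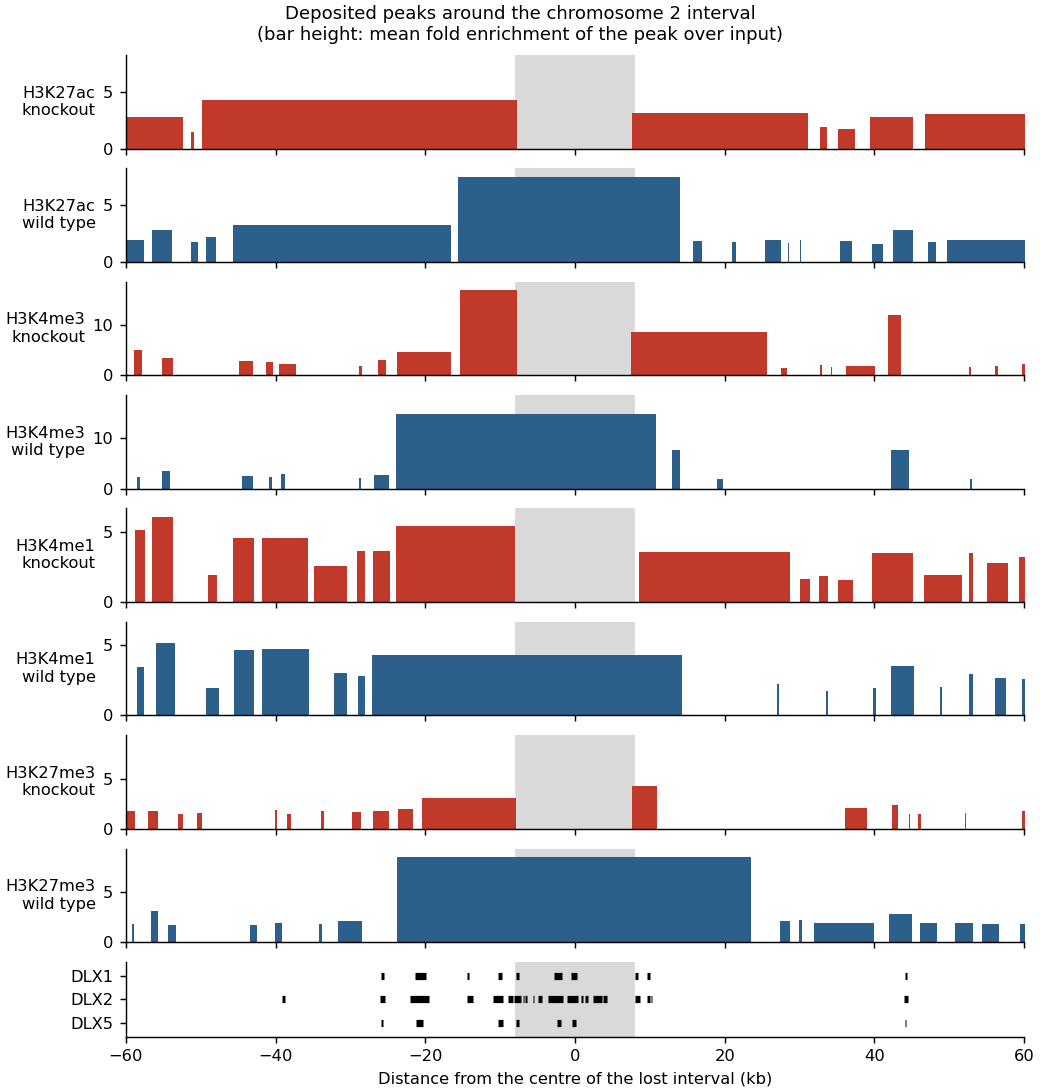
Deposited peaks of 4 histone marks in knockout (red) and wild type (blue) within 60 kb of the centre of the lost interval (shaded), with DLX peaks of e13.5 as black bars. The horizontal axis is distance in kb and bar height is the mean fold enrichment of a peak. Peaks of all 4 marks stop at the edges of the interval in knockout and run through it in wild type.

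Wild-type DLX binding inside the lost interval was dense: 3 DLX1 peaks, 11 DLX2 peaks and 3 DLX5 peaks of e13.5 lay in it. Acetylation continued outside the interval. On its left, a knockout peak of 42092 bp with an enrichment of 4.29 ended at the border, and on its right a knockout peak of 23518 bp with an enrichment of 3.08 began there. The interval sat inside a cluster of 14 regions listed as higher in knockout (chr2:71144645-71486315). Over that cluster, H3K27ac peaks covered 77.6% of the length in knockout and 66.7% in wild type. Their mean enrichment there was 3.012 in knockout and 3.145 in wild type. The knockout list also covers more of the autosomes as a whole, 657.9 Mb against 559.6 Mb in wild type. H3K4me1 had 23 regions and H3K4me3 had 12 regions listed as higher in knockout in the same stretch. The share of listed regions called different varied along chromosome 2 with no steady order by distance from the interval. Within 1 Mb of the interval, 6.42% of 109 listed regions were lower and 12.8% were higher in knockout. Between 1 and 5 Mb away, 6.21% of 161 were lower and 4.97% were higher. Between 5 and 10 Mb away, 23.2% of 99 were lower and 1.01% were higher, and 18 of those 23 lower regions formed 1 cluster described with the other loci. Between 10 and 20 Mb, 2.56% of 156 were lower and 1.92% were higher. Beyond 20 Mb, 2.6% of 3004 were lower and 1.43% were higher.

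Across the autosomes, most well-enriched H3K27ac peaks of one genotype had a well-enriched peak in the other. The lists reach down to peaks with a −log10 q near 0, so a peak was called strong at a −log10 q of at least 5. Strong peaks numbered 8163 in knockout (2.67% of the list) and 8631 in wild type (3.01%). They had a median width of 3261 bp in knockout and 2978 bp in wild type, and a median enrichment of 4.30 in knockout and 4.52 in wild type. Of the strong peaks, 98.8% in knockout and 99.2% in wild type were promoter-like, which means that they overlapped a wild-type H3K4me3 peak of the same strength. None of the 8163 strong knockout peaks lacked a peak in wild type, which allows a share of up to 0.0368%. None of the 8631 strong wild-type peaks lacked a peak in knockout, which allows a share of up to 0.0348%. Any deposited peak counted as a partner here, and the lists cover 657.9 Mb in knockout and 559.6 Mb in wild type. A wide strong peak is then likely to touch some weak peak, so both counts are a lenient measure of sharing. With the stricter condition that the partner be strong as well, 91.5% of the knockout peaks (90.8 to 92.1%) and 87.2% of the wild-type peaks (86.5 to 87.9%) had one.

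Strong peaks that overlapped a DLX peak had a strong partner somewhat more often than those that did not. In knockout the share was 92.9% of 3256 peaks with DLX and 90.5% of 4907 without, and in wild type it was 90.2% of 3367 with DLX and 85.3% of 5264 without. A wide peak touches both a DLX peak and a partner more easily. In the strong shared regions described further on, the median length was 5906 bp with DLX and 3334 bp without. The part of width in these shares was not tested. Away from strong H3K4me3, partners were scarcer. Among strong peaks that overlapped only weaker wild-type H3K4me3 peaks, 32.7% of 98 in knockout and 52.1% of 71 in wild type had a strong partner. Only 2 strong knockout peaks and no strong wild-type peak were distal, with no deposited wild-type H3K4me3 peak under them. Almost all strong acetylation peaks in these lists therefore overlapped strong wild-type H3K4me3, and statements on distal elements rest on weaker peaks. Gene models were not used, and a wide promoter-like peak may also hold sequence outside a promoter.

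Peaks found in one genotype only were numerous and weak. Merging overlapping peaks of both genotypes gave 343071 regions, of which 101345 were present in knockout only and 62167 in wild type only. Distal regions made up 95.8% of the knockout-only set and 95.7% of the wild-type-only set. The median −log10 q was 0.129 in the knockout-only set and 0.180 in the wild-type-only set, and 24 knockout-only and 31 wild-type-only regions reached a −log10 q of 2. DLX peaks touched 0.335% of the knockout-only and 0.431% of the wild-type-only regions. Over all deposited peaks the shares were 4.07% in knockout and 4.33% in wild type. Distal peaks, which make up most of the one-genotype sets, rarely had one: 660 of 237552 in knockout and 579 of 217205 in wild type. The strongest knockout-only region lay at chr4:119032000-119032946, with an enrichment of 3.35 and a −log10 q of 4.72. The strongest wild-type-only region lay at chr17:51162226-51162599, with an enrichment of 3.18 and a −log10 q of 3.26. Both overlapped weak H3K4me3 and no DLX peak, and both were singled out after their values were seen. The number of weak peaks grows with sequencing depth, and the depth of the chromatin libraries is unknown from these files, so the larger knockout-only set is not read as a gain.

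The mean enrichment of peaks at shared regions differed little between the genotypes. Of 179559 shared regions, 9204 held a strong peak of either genotype. Their median enrichment, weighted by peak length, was 4.04 in knockout and 4.25 in wild type, a median log2 ratio of −0.07 with quartiles of −0.17 and 0.04. Ratios were then read relative to that median, since libraries of unknown depth and background set its level. After this centring, 9174 regions (99.7%) lay within 1.5-fold. One region was at least 2-fold lower in knockout (0.0109% of 9204) and 0 were 2-fold higher (0%). At 1.5-fold, 17 were lower (0.185%) and 13 were higher (0.141%). The mean is taken over bases under a peak, so bases whose peak is missing in a genotype do not lower it. The lost interval on chromosome 2 merged with its flanking peaks and is not the region past 2-fold.

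Shared regions were slightly wider in knockout. The median covered length was 3612 bp in knockout and 3334 bp in wild type, a median log2 ratio of 0.08. A single knockout peak faced 2 or more wild-type peaks in 1554 regions, while 2 or more knockout peaks faced 1 wild-type peak in 641 regions. Promoter-like regions with a DLX peak had a median covered length of 5351 bp in knockout and 4898 bp in wild type. For those without one it was 2950 bp in knockout and 2711 bp in wild type. Covered length grows with sequencing depth, which is unknown here. The whole lists cover 657.9 Mb in knockout and 559.6 Mb in wild type, so the wider regions are not read as a spread of acetylation.

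Overlap with DLX binding made almost no difference to the mean enrichment of peaks at these strong regions. The median log2 ratio was −0.06 for 3620 regions with a DLX peak and −0.07 for 5584 regions without. With 3 factors bound it was −0.07 in 416 regions, with 2 factors −0.06 in 892 regions and with 1 factor −0.05 in 2312 regions. Within the lowest quartile of mean enrichment the medians were −0.03 with DLX and −0.07 without, and within the highest quartile they were −0.08 with DLX and −0.09 without. Of the 17 regions that were 1.5-fold lower in knockout, 5 overlapped a DLX peak (0.138% of regions with DLX), and of the 13 that were higher, 2 did (0.0552%). Both shares are near or below those over all strong regions. The ratio averages whole peaks, so a change in a part of a peak is averaged with the rest. Regions with DLX were longer, with a median of 5906 bp against 3334 bp without, and 9089 of the 9204 regions were promoter-like. Changes at the DLX sites within these peaks were not measured here.

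**Figure D2:**
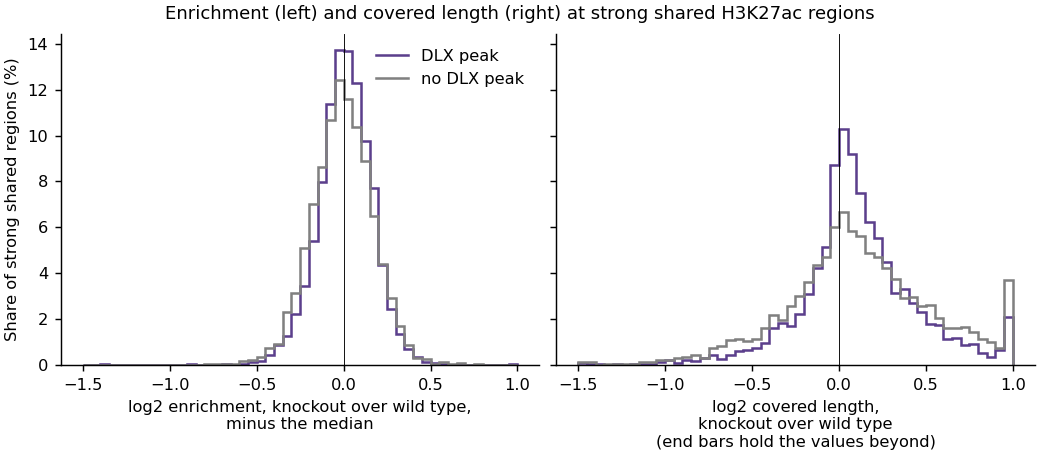
Change of enrichment (left, log2 of knockout over wild type minus the median) and of covered length (right, log2 of knockout over wild type) at 9204 strong shared regions, as the percent of regions per bin with (purple) and without (grey) a DLX peak. Both enrichment curves centre near 0 and nearly coincide, and the covered length leans to positive values.

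The single region past 2-fold was chr6:6797039-6835420, a promoter-like domain of 38382 bp with peaks of all 3 DLX factors. Its enrichment was 2.19 in knockout and 6.03 in wild type, a centred log2 ratio of −1.39. One continuous peak in wild type was replaced by 8 pieces in knockout, and the highest −log10 q was 1.71 in knockout and 14.2 in wild type. The next lowest ratios were at chr6:100654485-100655776, with 2.17 in knockout and 4.48 in wild type and no DLX peak, and at chr2:158372098-158443849, with 2.33 in knockout and 4.52 in wild type and all 3 DLX factors. At the other end stood chr13:95635688-95656434, with 3.68 in knockout and 1.97 in wild type. There a single knockout peak of 20747 bp faced 7 wild-type peaks that covered 7872 bp.

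Named regions were taken from the ends of the list among well-enriched regions of at least 500 bp in both genotypes. No distal region qualified, and 4587 promoter-like regions did. The 5 lowest spanned centred log2 ratios from −0.85 to −0.57. At chr17:32415650-32422732 the enrichment was 3.25 in knockout and 6.16 in wild type, and at chr7:19607216-19611981 it was 3.26 in knockout and 5.69 in wild type. Covered length went the other way at these regions and was greater in knockout. It was 6105 bp in knockout and 3691 bp in wild type at the first. At the second it was 4766 bp in knockout and 757 bp in wild type. A wide peak averages its summit with its flanks, and the part of this in the ratios was not tested. The region chr2:70393755-70408159 differed in that its covered length was nearly equal, 14224 bp in knockout and 14085 bp in wild type. Its enrichment was 3.72 in knockout and 5.88 in wild type, and it was the only one of the 5 with a DLX peak, carrying all 3 factors. The remaining pair, also wider in knockout, were chr2:126756714-126759912 (5.97 in knockout, 9.39 in wild type) and chr4:12833071-12835509 (4.58 in knockout, 7.15 in wild type).

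The 5 highest spanned centred log2 ratios from 0.51 to 0.65. They were chr15:88580189-88585954 (5.70 in knockout, 3.80 in wild type), chr11:100946984-100949847 (4.96 in knockout, 3.44 in wild type), chr2:135480625-135486042 (5.91 in knockout, 4.17 in wild type), chr2:102912133-102915986 (5.14 in knockout, 3.65 in wild type) and chr14:73909462-73910560 (5.47 in knockout, 4.03 in wild type). Of these 5, 2 overlapped a DLX peak. Covered length was smaller in knockout at all but the chromosome 15 region, where it was 4436 bp in knockout and 4202 bp in wild type. At the chromosome 11 region it was 2020 bp in knockout and 2864 bp in wild type. The part of width in these ratios was not tested. H3K4me3 was close between the genotypes at the named extremes: its enrichment was 10.8 in knockout and 11.3 in wild type at the chromosome 17 region, and 17.5 in knockout and 15.4 in wild type at the chromosome 11 region. At the chromosome 14 region it went against acetylation, with 11.7 in knockout and 14.8 in wild type.

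Sites bound by DLX proteins were also taken as the starting point. The DLX1, DLX2 and DLX5 peaks of e13.5 merged into 19758 sites. An H3K27ac peak of any strength covered 80.3% of them in knockout and 79.5% in wild type. The share depended on the class of the site. It was 98.0% in knockout and 97.8% in wild type at 8458 promoter-like sites, 89.8% in knockout and 89.6% in wild type at 7265 sites with weak H3K4me3, and 26.2% in knockout and 23.3% in wild type at 4035 distal sites. Most distal DLX sites thus carried no acetylation peak in either genotype. The deposited H3K27ac peaks cover 657.9 Mb in knockout and 559.6 Mb in wild type, so list size alone yields some overlap. Whether the distal shares exceed that overlap was not tested. Among sites bound by all 3 factors, 87.0% in knockout and 87.8% in wild type had a peak.

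Where both genotypes had a peak, at 15032 sites, the median enrichment was 2.66 in knockout and 2.80 in wild type. Relative to the median change of these sites, 102 were 1.5-fold lower in knockout (0.679%) and 68 were higher (0.452%). Sites bound by all 3 factors shifted slightly further down, with a median log2 ratio of −0.11 over 1708 sites against −0.07 over 10350 sites bound by 1 factor. At 2-fold, 23 sites were lower (0.153%) and 18 were higher (0.12%). Of the 23, 13 lay in the chromosome 6 domain, 3 beside the lost interval and 3 in the chromosome 2 domain at 158 Mb. A site takes the mean of the whole peak it lies in, so neighbouring sites in 1 broad peak share their value.

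Smaller stretches within peaks were resolved by the authors' own comparison, which listed 695 autosomal regions as lower in knockout (1.81% of 38474 listed regions), 538 as higher (1.4%) and 37241 as common. The files name the genotypes only as conditions. Condition 1 was read as wild type, since 96.7% of its regions had their stronger peak in wild type and 79.7% of the regions of condition 2 had theirs in knockout. Of the common regions, 64.2% had their stronger peak in wild type. The enrichments that follow come from the same peaks as this reading and are no separate check of it. Lower regions had a median length of 496 bp, higher regions 457.5 bp and common regions 899 bp. Most regions of difference were touched by a peak in both genotypes. Of the lower regions, 663 (95.4%) overlapped a knockout peak by at least 1 bp. Their median enrichment was 2.23 in knockout and 2.80 in wild type. Of the higher regions, 529 overlapped a wild-type peak, and their median enrichment was 2.95 in knockout and 2.63 in wild type. Such an overlap can be small: in the lost interval, 473 of 15830 bp lay under a knockout peak. The enrichments are means of whole peaks, so the size of the change within the listed stretches was not measured.

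The classes of the 3 lists differed, and so did their lengths. Among lower regions 33.7% were promoter-like, 42.4% had weak H3K4me3 and 23.9% were distal. Among higher regions the shares were 37.7%, 34.6% and 27.7%, and among common regions 52.3%, 35.7% and 12.0%. Read per class, 3.47% of 4780 distal regions were lower in knockout and 3.12% were higher, against 1.18% lower and 1.02% higher of 19909 promoter-like regions. Among regions of 300 to 800 bp, 30.1% of the lower, 36.7% of the higher and 34.7% of the common ones were promoter-like. The distal shares in that range of lengths were 27.4% of the lower, 29.5% of the higher and 22.0% of the common ones. Among regions of like length, the promoter-like shares of the 3 lists were thus closer to each other.

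DLX peaks were more frequent in the regions lower in knockout than in the higher or common ones. A DLX peak of e13.5 overlapped 30.1% of the lower regions (26.8 to 33.6%), 8.92% of the higher regions (6.79 to 11.6%) and 21.5% of the common regions (21.1 to 21.9%). The share of listed regions that were lower in knockout grew with the number of DLX factors present. It was 1.61% of 30212 regions with no factor, 1.76% of 5459 with 1, 2.72% of 1802 with 2 and 6.39% of 1001 with all 3 (5.04 to 8.08%). The share that was higher in knockout went the opposite way, at 1.62% with no factor, 0.696% with 1, 0.389% with 2 and 0.300% with all 3. Length differs with DLX overlap: common regions had a median of 1525 bp with a DLX peak and 788.5 bp without. Without chromosome 2 the lower shares were 1.52, 1.5, 2.59 and 4.31% with 0, 1, 2 and 3 factors, and without 1 cluster of low knockout coverage on that chromosome the share with 3 factors was 4.88%.

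**Figure D3:**
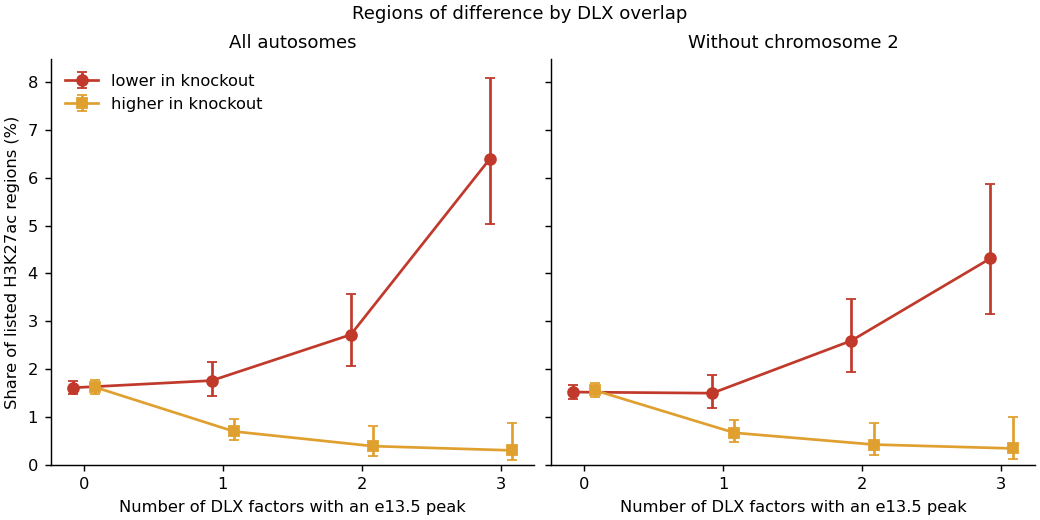
Percent of the authors' listed H3K27ac regions that were lower (red circles) or higher (yellow squares) in knockout, by the number of DLX factors with a peak of e13.5 in the region, on all autosomes (left) and without chromosome 2 (right). Bars are 95% Wilson intervals, and the lower share reaches 6.39% on the left and 4.31% on the right with 3 factors.

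A difference by DLX in the lower share was also present among regions of like length and in the class with weak H3K4me3. Regions of 300 to 800 bp, where lengths are alike, were lower in knockout in 7.68% of 1732 cases with a DLX peak and in 2.86% of 15778 cases without. They were higher in knockout in 2.08% of cases with DLX (1.51 to 2.86%) and in 2.93% without (2.68 to 3.21%), and these intervals overlap. With all 3 factors, 17.6% of 193 regions in that range of lengths were lower and 1.04% were higher (0.285 to 3.70%). Without the low-coverage cluster, 12.7% of 181 such regions with all 3 factors were lower. Regions with weak H3K4me3 were lower in 4.93% of 2292 cases with a DLX peak and in 1.58% of 11493 without, and in 10.6% of 293 cases with all 3 factors. Promoter-like regions were lower in 1.45% of 5951 cases with DLX (1.17 to 1.78%) and in 1.06% of 13958 without (0.903 to 1.24%), and these intervals overlap. Without chromosome 2 the 2 shares were 1.15% with DLX and 0.941% without. Of 19 distal regions with a DLX peak, 10 were lower, but 8 of these 10 belong to 1 cluster on chromosome 2, described further on, and without it 2 of 11 were lower. None of the 149 distal regions higher in knockout had a DLX peak, which allows a share of up to 2.01%. The share with a DLX peak was 22.4, 24.7, 27.7 and 45.4% from the lowest to the highest quartile of score among lower regions, and 39.9% in the highest without the low-coverage cluster. Among higher regions it was 8.15, 9.70, 7.46 and 10.4%, with overlapping intervals. Common regions showed an increase as well, with 11.9, 20.3, 25.9 and 27.9% from the lowest to the highest quartile.

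The share was also read factor by factor. Of listed regions with a DLX1 peak 3.73% were lower in knockout, of those with a DLX2 peak 2.72% and of those with a DLX5 peak 4.67%, over 3004, 7650 and 1412 regions. The intervals of DLX1 (3.11 to 4.47%) and DLX5 (3.69 to 5.90%) overlap. Without the low-coverage cluster the shares were 3.15% with DLX1, 2.49% with DLX2 and 3.58% with DLX5. DLX2 had the largest peak list and was present in 208 of the 209 lower regions with any DLX peak. Binding at other ages overlapped the lists differently. DLX peaks of e11.5 overlapped 22.3% of lower, 5.02% of higher and 25.7% of common regions, and those of e16.5 overlapped 39.0% of lower, 13.8% of higher and 40.6% of common regions. Common regions are longer, and among regions of 300 to 800 bp the lower list had the larger share at each age. There the peaks of e11.5 overlapped 16.2% of lower, 4.01% of higher and 8.44% of common regions, those of e13.5 overlapped 22.7%, 7.21% and 9.52% in the same order, and those of e16.5 overlapped 30.9%, 11.4% and 20.3%. The DLX lists differ in length between ages, so the levels themselves are not compared.

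Other marks moved with acetylation at a minority of these regions. Of the 695 lower regions, 188 (27.1%) overlapped a region listed as lower for H3K4me1, against 0.435% of common regions. H3K4me1 had 2.38% of its 122753 regions listed as lower. H3K4me3 was listed as lower at 75 of the 695 (10.8%), against 0.242% of common regions and 0.943% of its own 36374 regions. Where a DLX peak was present, these shares were 41.6% for H3K4me1 and 24.9% for H3K4me3 among 209 regions. Among 486 lower regions without a DLX peak they were 20.8% and 4.73%. The sets also differ in class and length: 4.8% with DLX and 32.1% without were distal, with median lengths of 669 and 457.5 bp. Distal regions overlap no wild-type H3K4me3 peak by definition, and 0 of 166 were listed as lower for H3K4me3. The part of class and length in these shares was not tested. H3K27me3 was listed as higher at 12 of the 695 (1.73%, against 0.126% of common regions), and 10 of those 12 were promoter-like. It was listed as lower at 5 of the 695 (0.719%, against 0.113% of common regions). For H3K27me3, 2.12% of all 31239 listed regions were higher in knockout. Neither methylation of H3K4 was listed as lower at 480 lower regions (69.1%), nor at 142 of the 166 distal ones.

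At the 538 higher regions, H3K4me3 was listed as higher at 60 (11.2%) and H3K4me1 at 44 (8.18%). The matching shares of common regions were 2.96% and 0.773%. These marks had 4.52% and 1.54% of all their regions listed as higher. No higher region overlapped an H3K4me3 region that was lower in knockout, which allows a share of up to 0.558%. Opposite changes were few: H3K4me1 was listed as lower at 1 higher region and as higher at 5 lower regions, and H3K4me3 was listed as higher at 2 lower regions.

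**Figure D4:**
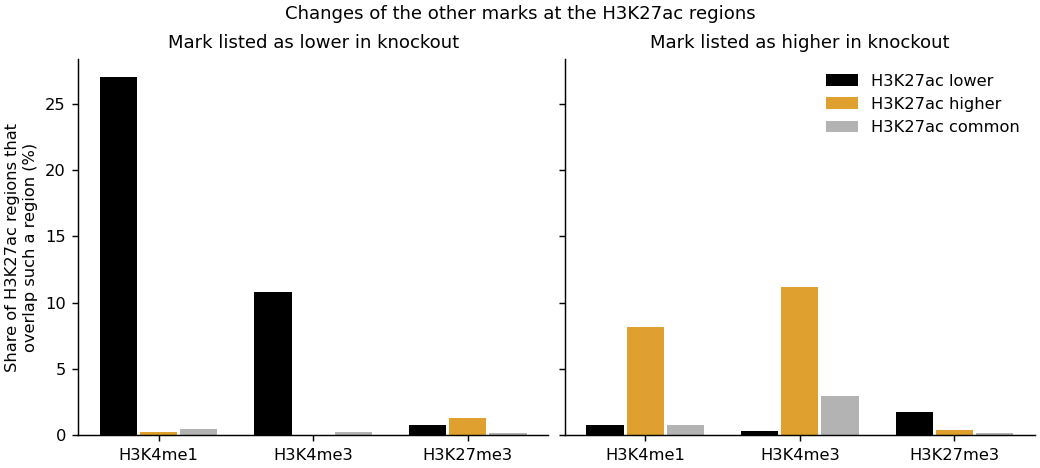
Percent of H3K27ac regions that overlap a region listed as lower in knockout (left) or higher in knockout (right) for another mark, for H3K27ac regions that were lower (black), higher (yellow) or common (grey). Lower H3K27ac regions overlap lower H3K4me1 in 27.1% and lower H3K4me3 in 10.8% of cases.

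Many regions of difference lay in groups. Joined over gaps of up to 250 kb, the 695 lower regions formed 387 clusters, of which 272 were single regions and 7 held 10 or more. The 538 higher regions formed 349 clusters, of which 260 were single and 4 held 10 or more. Chromosome 2 carried 123 lower and 69 higher regions, chromosome 17 carried 54 lower regions and chromosome 13 carried 67 higher regions. The loci that follow were chosen after their values were seen.

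The chromosome 6 domain had the second highest score of the lower regions, 19.9 in the authors' deposited table, over a stretch of 28341 bp (chr6:6804196-6832536). Wild-type DLX proteins had 5 DLX1, 12 DLX2 and 3 DLX5 peaks in it. All 4 marks were still present in knockout, unlike at the lost interval. H3K27ac stood at 2.24 in knockout and 6.03 in wild type, and H3K4me3 at 6.76 in knockout and 12.5 in wild type. H3K27me3 went the other way, with 14.9 in knockout and 10.9 in wild type, and 10 regions listed as higher. H3K4me1 was listed as lower at 3 and as higher at 3 places within the stretch. Acetylation and H3K4me3 were lower while the Polycomb mark was higher over the same domain. Chromosome 6 carries Dlx5 and Dlx6 in the RefSeq table of GRCm38.

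A second group of 18 lower regions lay at chr2:158374888-158672842, with 14 DLX sites. H3K27ac peaks averaged 2.15 in knockout and 2.96 in wild type over it, and H3K4me3 averaged 7.22 in knockout and 8.96 in wild type. H3K4me1 had 20 regions and H3K4me3 had 5 regions listed as lower there, and H3K27me3 had none lower and 1 higher. A compact group of 10 lower regions filled 28616 bp at chr2:22472948-22501563. H3K27ac was 3.56 in knockout and 5.11 in wild type, 8 regions were lower for H3K4me3, and 3 were higher for H3K27me3, whose peaks covered 65.7% of the group in knockout and 48.6% in wild type. In neither group was a region listed as lower for H3K27me3.

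Other lower groups differed in that H3K27me3 was lower too. At chr2:77714344-77864465, which starts 6.33 Mb from the lost interval, H3K27ac peaks covered 9.15% of the length in knockout and 73.5% in wild type. Coverage was also less for H3K4me1 (7.04% in knockout, 27.9% in wild type), for H3K4me3 (4.62% in knockout, 41.0% in wild type) and for H3K27me3 (12.2% in knockout, 40.5% in wild type). The stretch held 18 lower regions for H3K27ac, 16 for H3K27me3 and 10 for H3K4me1. It also held 56 DLX1, 77 DLX2 and 113 DLX5 peaks of e13.5, which is 3.88% of the whole DLX5 list within 150122 bp. Of the 32 lower regions with no knockout peak, 10 lay here. Peaks of all 4 marks thus covered less of this stretch in knockout, and the part of DNA copy number in this was not tested. At chr17:27070038-27817296, the largest group with 28 lower regions, H3K27me3 had 19 and H3K4me1 had 22 lower regions. H3K27ac averaged 2.4 in knockout and 2.75 in wild type there.

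The remaining large lower groups were 13 regions at chr11:101478321-101588762 (2.73 in knockout, 3.42 in wild type), 12 regions at chr4:124928037-125261049 (2.19 in knockout, 2.63 in wild type) and 11 regions at chr12:89642760-90109484 (1.96 in knockout, 2.28 in wild type). In each of these 3 groups H3K4me1 was listed as lower as well, at 5, 16 and 24 places, and H3K27me3 at none.

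The clearest gain lay on chromosome 13. A group of 16 higher regions spanned chr13:95313496-95656190, and its top region, chr13:95644842-95648262, scored 19.8 in the authors' deposited table. That region was fully covered at 3.68 in knockout and covered over 51.7% at 1.99 in wild type. H3K4me3 on it was 9.84 in knockout and 4.39 in wild type, H3K4me1 was 3.70 in knockout and 2.75 in wild type, and H3K27me3 was 10.0 in knockout and 11.8 in wild type. It held 1 DLX2 peak and no DLX1 or DLX5 peak. Another 16 higher regions lay at chr13:78008966-78333354, where peaks covered 54.9% of the length in knockout and 35.1% in wild type at similar enrichment (3.24 in knockout, 3.19 in wild type). A further 12 lay at chr2:37684005-38215530, covered over 63.1% in knockout and 48.0% in wild type.

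**Figure D5:**
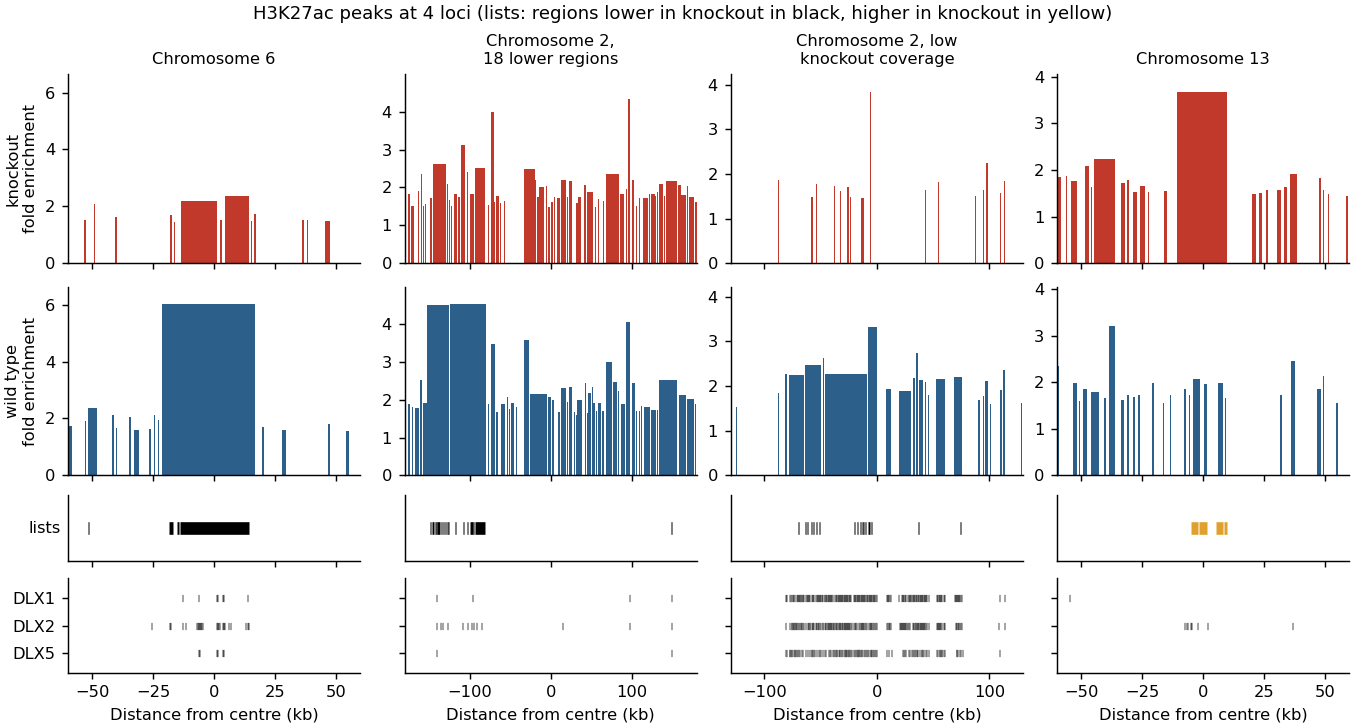
H3K27ac peaks in knockout (top, red) and wild type (second row, blue) at 4 loci, with the authors' regions lower (black) and higher (yellow) in knockout and the DLX peaks of e13.5 below. The horizontal axis is distance in kb from the centre of each locus and bar height is the mean fold enrichment, which is 2.24 in knockout and 6.03 in wild type over the chromosome 6 region.

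A high score picked out few places. In the authors' deposited table, 23 lower regions had a log10 likelihood ratio of at least 10, at 9 places on 5 chromosomes. Of these 17 lay on chromosome 2, 17 overlapped a DLX peak and 9 overlapped all 3 factors. The low-coverage cluster held 7 of the 23, and of the 16 others 10 overlapped a DLX peak and 3 overlapped all 3 factors. The 8 higher regions above that score lay at 4 places, and 3 of them overlapped a DLX peak, none with all 3 factors. One of the 8 lay in the strongest knockout-only region, on chromosome 4, and scored 14.0 in the authors' deposited table.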

How the data were processed

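Peak lists of native ChIP-seq were deposited by the authors, 1 per mark and genotype. The submitters' processing notes name mm9 as the build and list MACS2, BWA 0.7.16a, deepTools, SAMtools and Trim Galore. Settings and read depths are not stated there. The deposited values are a fold enrichment over input (a ratio), the −log10 of p and q of each peak, and, for the authors' comparison of genotypes, a score per region, the log10 likelihood ratio. Peak names carry an unexplained tag, so a list may stand for more than 1 library. RNA was deposited as read counts per gene by the authors, with library totals of 14.4 to 117 M.

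Overlap was at least 1 bp. Strong peaks had a −log10 q of at least 5. Shared regions were merged peaks, and a region's enrichment was the mean weighted by covered length. Changes were called at 2-fold after subtraction of the median. Promoter-like regions overlapped a strong wild-type H3K4me3 peak, and distal ones overlapped no H3K4me3 peak. Named regions were the 5 lowest and 5 highest ratios per class, among regions of at least 500 bp in both genotypes whose mean enrichment was at least the median. The members, lists and thresholds were chosen with earlier results of these data known. No region, gene list or score was tested. Python 3.11.15, pandas 2.3.3, NumPy 2.4.6 and SciPy 1.17.1 were used, and the region procedure was tested on simulated data. RNA counts were scaled to CPM. RNA samples carry separate labels, and nothing says how the embryos were paired. Sex chromosomes, input files and the lists of other ages beyond DLX overlap were not used here.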

Additional observations from a re-analysis of the deposited data

How the results depend on the processing

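Strong peaks with a partner in the other genotype made up 100% in both genotypes, also at a −log10 q of at least 10. The share was 99.85% in knockout and 99.82% in wild type at a −log10 q of at least 2, 66.9% in knockout and 78.3% in wild type over all deposited peaks, 97.4% in knockout and 98.9% in wild type when 50% of the length had to be covered, and 91.5% in knockout and 87.2% in wild type when the partner had to be strong. The 1 region that was 2-fold lower became 3 with the highest peak of a region, 0 with 1 peak per genotype, 2 without centring and 17 at 1.5-fold. The 0 regions that were higher became 1 with the highest peak and 13 at 1.5-fold. With a DLX peak, 1 lower region became 5 at 1.5-fold and 23 with DLX sites as the unit, a setting chosen after seeing the data. Among non-promoter-like strong regions, the median ratio with DLX minus without was −0.05, against 0.02 over all.

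At a log10 likelihood ratio of at least 10, 23 lower regions remained with 73.9% overlapping DLX (62.5% of 16 without the chromosome 2 cluster that lost coverage), and 8 higher regions with 37.5%. Settings chosen after seeing the data left out parts of the genome. Regions with all 3 factors were lower in 6.39% of cases, against 4.31% without chromosome 2, 4.43% without clusters of 10 or more regions and 4.88% without the chromosome 2 cluster that lost coverage. Distal regions with DLX were lower in 52.6% of cases, against 18.2% under each of these 3. The cause was not tested. Leaving out each RNA library in turn gave 18.4 to 19.8% for Dlx1 and 5.55 to 6.91% for Dlx2. No paired analysis was possible because each genotype has 1 H3K27ac library and the RNA values come from no test. One library per genotype, an unknown depth and lists without a significance threshold limit all comparisons.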
